A study of Homo sapiens with 28 samples.

Results

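Peaks of N6-methyladenosine (m6A) on chromatin-associated RNA (caRNA) were examined in 8 genes of the MYC network, namely MYC, MAX, MXD1, MXD4, MXI1, MNT, MGA and MLX, of 20033 protein-coding genes annotated by GENCODE on hg38. The genes were taken as a fixed list of network members, and a peak was kept for a gene if its summit lay between 1000 bases upstream of the gene start and the gene end, with the strands kept apart. Touching peaks of all libraries on 1 strand were joined into a region, which gave 50 regions in these genes of 86479 in all. Of the 50 regions, 41 lay on the strand of the gene (sense) and 9 on the other strand. The peaks come from m6A methylated RNA immunoprecipitation sequencing (MeRIP-seq), which enriches RNA fragments bound by an antibody against m6A. The series has 28 samples, 14 immunoprecipitated (IP) libraries with a peak list each and 14 input libraries that were not used here, and the study asks what RBFOX2, an RNA-binding protein, does to m6A on caRNA. The lines were HepG2, from a hepatoma, K562, from a chronic myelogenous leukaemia, and NB4, from an acute promyelocytic leukaemia. The IP libraries fall into 6 groups, of which the 4 groups of HepG2 WT, K562 WT, K562 Control and K562 RBFOX2 KD have 2 libraries each, and those of NB4, which are Control and RBFOX2 KD, have 3 each. Per the study's methods, knockdown (KD) cells carried a lentiviral short hairpin RNA (shRNA) against RBFOX2 and Control cells a non-targeting shRNA. The methods describe puromycin selection of transduced cells in K562 and in the acute leukaemia lines, and the K562 KD cells were also kept in it. No hairpin is given for the untreated wild-type (WT) cells. The sources used here do not say which of the RBFOX2 hairpins a library carried, and no age or time was given. The study calls its replicates biological but does not say that they were separate cultures, so the p-values below measure only the spread between these libraries.

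MYC is a transcription factor that binds DNA as a dimer with MAX and switches on genes of growth and ribosome production. MXD1, MXD4, MXI1 and MNT also pair with MAX and recruit the SIN3 corepressors to the same E-box sites, MGA pairs with MAX in a Polycomb-type repressive complex, and MLX is the alternative partner that MXD1, MXD4, MNT and the MondoA protein share. In blood cells MYC falls and MXD1 rises as precursors mature, and m6A on MYC mRNA is a known control point of its stability in myeloid leukaemia. The mark is usually written in long exons and around stop codons, on the A of a GGAC core.

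The 14 lists held 22700 to 44088 peaks. Their depth, recovered from the peak statistics as effective megareads (M), was 29.2 and 32.9 M in HepG2 WT, 25.6 and 24.9 M in K562 WT, 14.8 and 19.5 M in K562 Control, 16.4 and 12.6 M in K562 KD, 10.8, 14.1 and 17.2 M in NB4 Control and 21.9, 18.6 and 16.8 M in NB4 KD. NB4 Control was therefore the shallower of the NB4 groups in 2 of its 3 libraries, and the part of depth in the NB4 differences below was not tested. The lists hold no RNA levels, so the depletion of RBFOX2 could not be checked. RBFOX2 itself had 2 and 3 sense summits in the K562 Control libraries, 3 in each K562 KD library, and 1 or 2 in each NB4 library. Of 8 hepatocyte marker genes, 6 had a sense peak in a HepG2 library, with ALB and AFP listed nowhere, and HNF4A was the marker also listed in K562 WT. Of 7 erythroid markers, all were listed in both K562 WT libraries, and of 7 myeloid markers 6 were listed in all NB4 libraries, with ELANE listed nowhere. Several were not limited to 1 line. EPOR was listed in all 14 libraries, NFE2 in 13 and GATA1 also in the 3 NB4 KD libraries. AZU1, CSF3R and SPI1 were also listed in both K562 WT libraries, and CSF3R in both HepG2 WT libraries.

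The strength of a region in a library was taken as the percentile of the -log10 q-value of its strongest peak within that library's list, where 100 is the strongest peak of the list, and a region with no peak was set to 0 (not listed). A peak needs both RNA and methylation, so less RNA and less m6A per RNA cannot be told apart in these lists. MYC, MAX, MXD1, MNT, MGA and MLX had sense peaks in all 14 libraries, as had 25.4% of protein-coding genes, while MXI1 was listed in 7 libraries and MXD4 in 5. The 8 genes held 395 sense summits, of which 220 (55.7%) lay in coding exons, 73 in introns, 36 in 3' UTRs and 16 in 5' UTRs of the canonical transcripts. A further 27 lay downstream and 23 upstream of the canonical transcript but within the gene window. Of the 41 sense regions, 12 were listed in all 14 libraries, 6 of them in MGA, 3 in MNT, 2 in MYC and 1 in MXD1.

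**Figure D1:**
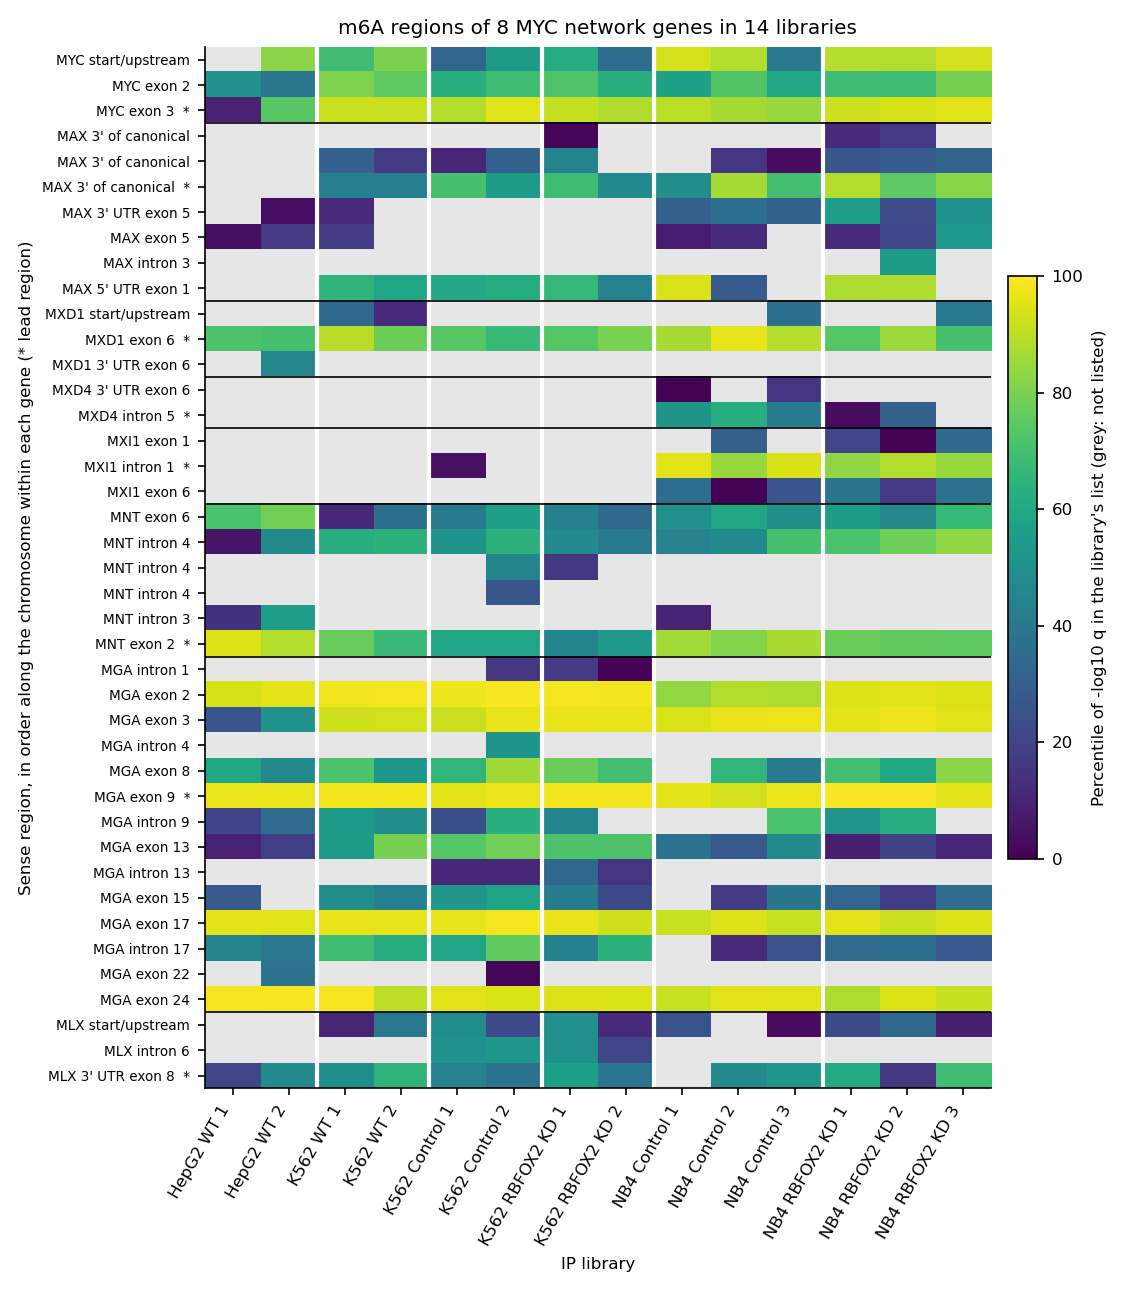
Percentile of -log10 q in each of the 14 IP libraries (columns, by group) for the 41 sense regions of the 8 genes (rows, in chromosome order within a gene, with * at the lead region). Grey cells are regions with no peak in that library. MGA exons 2, 9, 17 and 24 are bright in every library, while the MXD4 and MXI1 rows are grey outside NB4 but for 1 cell.

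Of the 64 exons of the 8 canonical transcripts, 18 were 400 bases or longer, and 17 of these carried a sense summit in some library, against 7 of the 46 shorter exons. Per kilobase and library the long exons held 0.530 summits and the short exons 0.415. The value of the short exons rests on few of them. Of their 38 summits, 14 lay in MGA exon 9, 10 in MAX exon 1 and 5 in MYC exon 1, which has 393 bases. The short exons of MXD1, MXD4, MXI1, MNT and MLX held 0 summits. In MYC exon 3 the 14 summits lay 28 to 358 bases before the last coding base (median 68), and in exon 6 of MXI1, its last exon, the 6 summits lay 59 to 134 bases before it. In MLX the 13 summits of exon 8 lay 19 to 213 bases after the last coding base, in the 3' UTR. In MGA, with the longest transcript of the 8 (12193 bases, 24 exons), summits were found in 12 exons from exon 2 to exon 24.

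**Figure D2:**
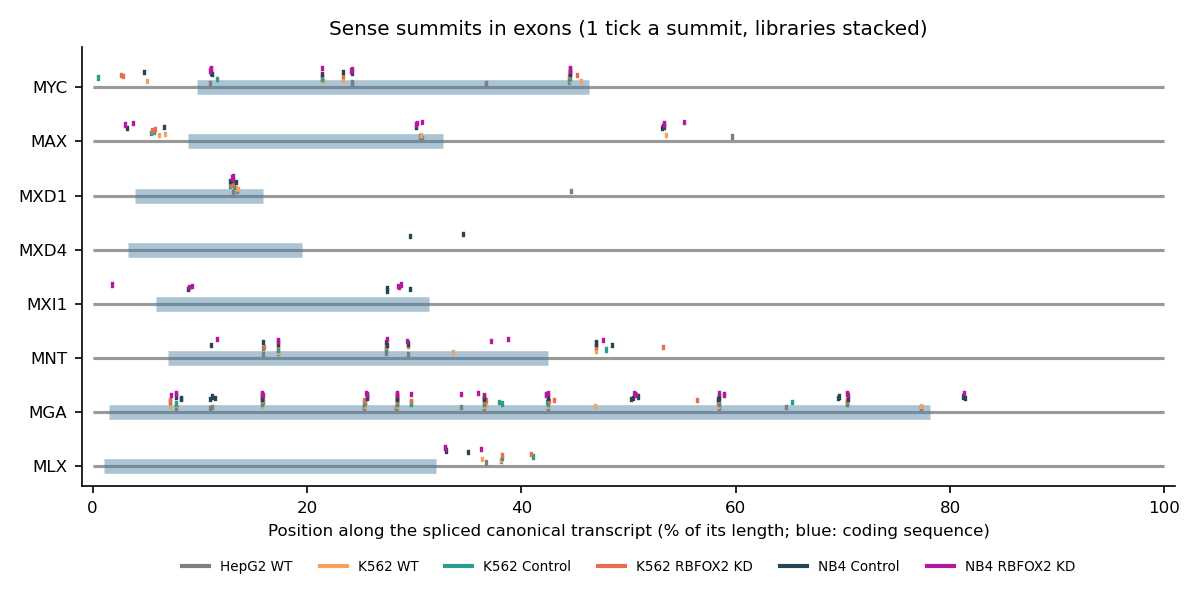
Position of each sense summit in an exon along the spliced canonical transcript, in percent of its length, with 1 tick a summit, coloured by group and stacked by library above each gene. Blue bars are coding sequence. MYC, MXD1 and MXI1 have a cluster at the end of the coding sequence, MLX just after it, and MGA along its whole coding sequence.

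The bases up to 50 on each side of the median summit of each region were read from hg38 on the strand of the peak. GGAC was present in 21 of the 41 sense windows (51.2%) and GGACT, which contains it, in 11 (26.8%), searched on the strand of the peak alone. Of all 86479 regions, 38918 had GGAC (45.003%) and 14858 had GGACT (17.2%) in the same window. A match is a description of the letters and not a mapped m6A site.

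Groups were compared by whether all libraries of one lay above all libraries of the other in a region, and each count is set beside the share of all regions with the same pattern. Between K562 KD and K562 Control, of 34 member regions listed in those libraries, 2 were higher in both KD libraries (11.3% of all regions) and 5 were lower (12.5%). Between NB4 KD and NB4 Control, of 39 regions, 5 were higher in all KD libraries (14.3% of all regions) and 4 were lower (3.97%), and with lists of equal length 1 was higher and 3 were lower. Between K562 WT and HepG2 WT, of 32 regions, 19 were higher in K562 (54.7%) and 5 were lower (15.9%), but with lists of equal length 7 were higher and 9 lower. Between NB4 Control and K562 Control, of 45 regions, 8 were higher in NB4 (15.5%) and 8 were lower (32%), and these Control libraries are the same as in the KD comparisons. Between K562 Control and K562 WT, of 37 regions, 5 were higher in Control (18.8%) and 7 were lower (33.9%). Over both lines together, of 48 regions, 0 had an exact two-sided p under 0.05 for a higher value in KD (1.51% of all regions) and 2 for a lower one (0.475%). Within a line, exact permutation tests cannot go below p = 0.3333 with 2 libraries against 2, or 0.1 with 3 against 3 or 2 against 3, so only the test over both lines, with 120 arrangements of labels and a smallest p of 0.01667, can pass 0.05. After Benjamini-Hochberg adjustment over all 71997 regions, 0 regions passed 0.05 in that exact test (smallest adjusted p = 0.955), although 1427 had an unadjusted p under 0.05.

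MYC, the activating member, is on the plus strand of chromosome 8 (127735434 to 127742951), and its canonical transcript has 3 exons. Its 3 sense regions lay at the transcript start, in exon 2 and in exon 3, which hold the coding sequence. In exon 3 (127740259 to 127741269), the lead region, defined as the sense region listed in most libraries with ties broken by the mean percentile, was at percentile 10.0 and 73.8 in HepG2 WT, 91.8 and 91.4 in K562 WT, 88.6 and 95.3 in K562 Control, and 91.1 and 88.0 in K562 KD. NB4 Control was at 89.96, 86.4 and 84.4 and NB4 KD at 92.3, 94.1 and 95.3. Both HepG2 libraries were below all others, and the NB4 KD libraries were all above the NB4 Control libraries, while the K562 groups overlapped. The HepG2 WT 1 value is of a summit elsewhere in the region, 1366 bases into the transcript, against 1653 to 1696 bases in the other libraries. The mean over both lines of the KD minus Control difference was 2.30 percentile points (exact permutation test, two-sided p = 0.383), and the difference between the lines did not pass 0.05 (exact p = 0.05).

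The folds over the local background at the exon 3 summit of each library, which in HepG2 WT 1 is the separate one, ordered the lines otherwise. They were 1.56 and 2.66 in HepG2 WT, 10.0 and 8.83 in K562 WT, 21.0 and 23.4 in K562 Control, 19.7 and 19.1 in K562 KD, 3.12 to 4.05 in NB4 Control and 4.38 to 5.31 in NB4 KD. The reads piled up at the summit, per M effective reads, were 8.25 and 11.5 in HepG2 WT and 15.1 to 19.2 over the 6 K562 libraries. They were 37.7, 34.2 and 28.4 in NB4 Control and 22.9, 25.3 and 28.98 in NB4 KD. NB4 libraries had the most reads per M at the summit and lower folds than all K562 libraries. In NB4 KD the reads per M at the exon 3 summit were below those of NB4 Control 1 and 2 while the percentiles were above them. Over the 6 NB4 libraries, however, the reads per M fell in the order in which depth rose. They went from 37.7 at 10.8 M in Control 1 to 22.9 at 21.9 M in KD 1. The part of depth in this order was not tested, so it is not read as a lower signal in KD.

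In exon 2 of MYC the region was at 50.5 and 39.1 in HepG2 WT, 80.7 and 75.3 in K562 WT, 63.3 and 69.0 in K562 Control and 72.3 and 62.8 in K562 KD. NB4 Control was at 57.1, 72.8 and 59.6 and NB4 KD at 68.5, 69.0 and 79.6, so that KD and Control overlapped in both lines. The region at the start (127736032 to 127736572), where promoter-associated RNA and the first exon meet, was not listed in HepG2 WT 1 and was at 82.6 in HepG2 WT 2, at 69.2 and 80.5 in K562 WT, 32.8 and 54.6 in K562 Control, and 62.0 and 35.4 in K562 KD. In NB4 Control it was at 93.6, 88.5 and 40.1 and in NB4 KD at 88.7, 88.6 and 93.2, with the low value in NB4 Control 3. The KD minus Control difference at the start was 10.6 points over both lines, which did not exceed the spread between libraries (exact two-sided p = 0.3333). CASC11, a noncoding gene on the other strand, overlaps this region, but reads were separated by strand.

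Peaks on the strand opposite to MYC were listed in exon 3 at 75.0 and 76.6 in HepG2 WT, at 67.2, 57.1 and 70.8 in NB4 Control and at 58.0, 54.5 and 74.0 in NB4 KD. Of the 6 K562 libraries, only K562 WT 1 had a peak there, at 15.2. In exon 2 the opposite strand had a peak in the HepG2 WT libraries alone, at 76.6 and 70.1. The opposite strand of MYC was thus listed in HepG2 and NB4, and in K562 by a single weak peak.

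**Figure D3:**
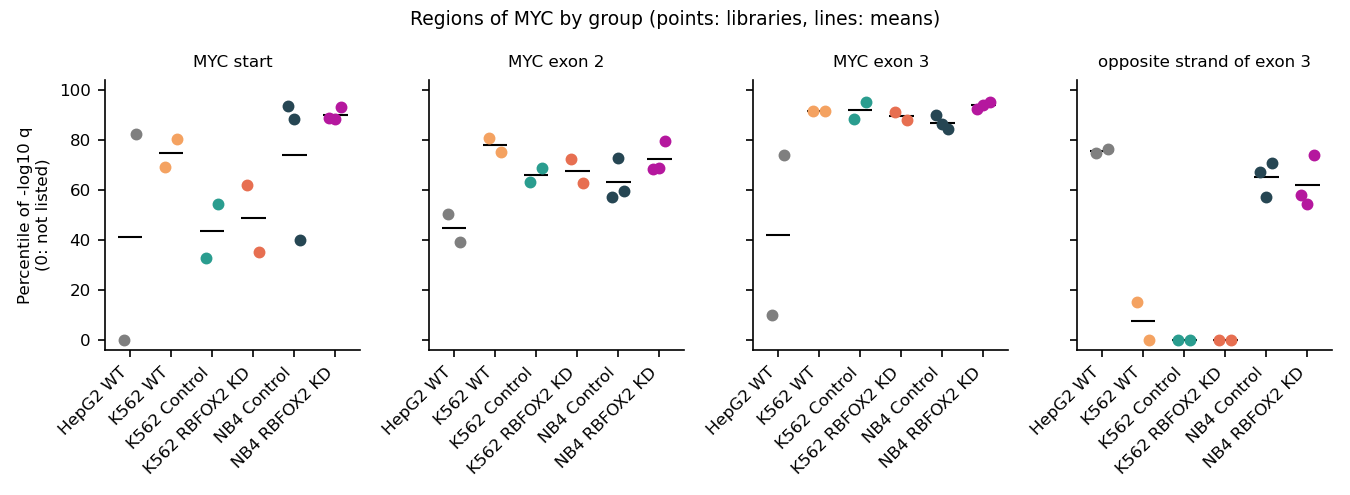
Percentile of -log10 q (0 for not listed) in the 6 groups for the start, exon 2 and exon 3 of MYC and for the opposite strand of exon 3. Points are libraries and lines are group means. In exon 3 the K562 and NB4 points lie between 84.4 and 95.3, and the opposite strand is listed in HepG2 and NB4 and in 1 K562 library.

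MAX, the shared partner, lies on the minus strand of chromosome 14 (65006174 to 65102695), and none of its 7 sense regions was listed in all libraries. The lead region (65069592 to 65070068) lay beyond the end of the canonical transcript, in exon 3 of the alternative transcript MAX-219. It was not listed in HepG2 WT and was at 43.1 and 43.3 in K562 WT, 70.8 and 55.3 in K562 Control and 68.9 and 47.9 in K562 KD. In NB4 it was at 49.3, 86.4 and 69.5 in Control and 88.4, 75.0 and 82.1 in KD. KD and Control overlapped in both lines (4.40 points over both, exact two-sided p = 0.617), and the sign turned with the percentile of the fold (-0.0925) and without K562 KD 1 (-0.864) or NB4 Control 1 (-0.389).

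The 5' UTR region of MAX in exon 1 was also missing in HepG2 WT and was at 65.2 and 59.3 in K562 WT, 60.4 and 61.8 in K562 Control and 66.6 and 44.4 in K562 KD. In NB4 it was at 94.5 and 28.7 in Control 1 and 2 and at 87.7 and 87.9 in KD 1 and 2, and was not listed in Control 3 or KD 3. The 3' UTR region of exon 5 was not listed in any K562 Control or KD library but was listed in every NB4 library, at 30.6, 36.7 and 31.2 in Control and 55.6, 22.9 and 51.5 in KD. A region at 65061355 to 65061980 was higher in all NB4 KD libraries, at 26.6, 28.6 and 32.4, than in NB4 Control, where it was not listed, at 15.5 and at 3.09. FNTB, a farnesyltransferase gene, runs on the other strand there, and the 4 opposite-strand regions of MAX all lay within FNTB or its CHURC1-FNTB readthrough transcript.

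MXD1, a repressor that rises in maturing myeloid cells, lies on the plus strand of chromosome 2 (69897688 to 69942945). Its lead region (69937956 to 69938529) was in exon 6, the last, and the 30 bases around its summit, from the coding end of the exon, are shown because they hold the GGAC core closest to a summit in a lead region, with the A 3 bases away and the core in capitals. The window is chr2:69938110-69938139 on the plus strand.
MXD1 exon 6: tgacgtggagagcacGGACtatctcacagg
The region was at 72.1 and 71.0 in HepG2 WT, 89.3 and 77.4 in K562 WT, 74.2 and 67.7 in K562 Control and 73.5 and 79.995 in K562 KD. The NB4 values were 86.8, 96.2 and 88.9 in Control and 73.8, 84.9 and 70.8 in KD. All NB4 Control libraries were above all NB4 KD libraries and above K562 Control, whereas the K562 KD and Control libraries overlapped. KD minus Control came to 5.79 points for K562 and -14.1 points for NB4, and the lines differed by 19.9 points (two-sided exact permutation p = 0.0333, and 0.94 after Benjamini-Hochberg adjustment over all regions). With the percentile of the fold this exact p was 0.217, and it passed 0.05 no longer without any 1 of the NB4 Control libraries, K562 Control 2, K562 KD 2 or NB4 KD 3. The reads per M at the summit were 17.8, 18.5 and 14.02 in NB4 Control and 8.33, 10.2 and 7.56 in NB4 KD. The folds there were 7.41, 11.96 and 7.12 in NB4 Control and 5.29, 7.80 and 6.34 in NB4 KD, which overlapped. The other 2 sense regions of MXD1 were listed in 4 and 1 libraries, and the former lies within SNRNP27 on the same strand, so its peaks may be reads of that gene.

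MXD4, a repressor of the same family, lies on the minus strand of chromosome 4 (2247432 to 2262109) and was listed in NB4 alone. Its lead region (2250463 to 2250848) spanned the boundary of intron 5 and exon 6, the last exon. Its summits, at 2250706 to 2250710, lay on the intron side, close to that boundary. The region was at 51.6, 62.6 and 41.4 in NB4 Control, at 3.02 and 30.5 in NB4 KD 1 and 2, and was not listed in NB4 KD 3. All Control libraries were above all KD libraries, with a difference of -40.7 points, and over both lines the difference was -20.4 points (exact two-sided p = 0.1, the smallest this test can give where all K562 libraries are at 0). Reads at the summit were 5.85, 6.29 and 4.46 per M in Control and 2.38 and 3.22 per M in the KD libraries with a peak. A second region in the 3' UTR was listed only in NB4 Control 1 and 3, at 0.652 and 15.6.

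MXI1, a further repressor of the family, lies on the plus strand of chromosome 10 (110207605 to 110287365). Its lead region (110227309 to 110227942) was in intron 1 of the canonical transcript, and an annotated UTR on the same strand lay within 50 bases of its median summit. The region stood at 95.5, 84.6 and 94.0 in NB4 Control and 83.5, 88.4 and 84.5 in NB4 KD. Outside NB4 it was listed in K562 Control 1 alone, at 4.33. The NB4 groups overlapped, and over both lines the KD minus Control difference was -4.03 points (exact two-sided p = 0.1). The region in exon 6 was listed in the 6 NB4 libraries only, at 36.2, 0.556 and 26.2 in Control and 38.5, 16.5 and 37.6 in KD, and a region in exon 1 in 4 NB4 libraries.

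MNT, the most widely expressed MAX-binding repressor, lies on the minus strand of chromosome 17 (2384073 to 2401104). The windows of its exon 2 and intron 4 regions are shown because exon 2 was lower in every KD library of its line and intron 4 moved in opposite ways between the lines, with GGAC in capitals. They are chr17:2394975-2395075 and chr17:2388111-2388211, both read 5' to 3' on the minus strand.
MNT exon 2: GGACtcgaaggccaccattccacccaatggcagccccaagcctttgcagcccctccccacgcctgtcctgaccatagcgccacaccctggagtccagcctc
MNT intron 4: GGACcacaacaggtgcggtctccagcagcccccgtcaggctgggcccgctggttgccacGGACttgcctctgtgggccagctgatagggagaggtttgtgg
The exon 2 region (2394883 to 2395547), the lead region, was at 94.6 and 88.4 in HepG2 WT, 76.7 and 67.7 in K562 WT, 59.2 and 59.2 in K562 Control and 45.3 and 54.1 in K562 KD. The NB4 values were 86.3, 81.4 and 87.3 in Control and 77.6, 75.7 and 75.3 in KD. KD was below Control in both lines without overlap, by -9.50 points in K562 and -8.81 points in NB4. Over both lines the difference was -9.16 points (two-sided exact permutation p = 0.01667, the smallest the design can give), with an adjusted p of 0.955 over all regions (Benjamini-Hochberg), and p was 0.433 when summits were chained in place of merged peaks. The folds were 10.2 and 8.72 in K562 Control and 7.51 and 9.53 in K562 KD, which overlapped, and 14.6, 11.3 and 12.7 in NB4 Control and 9.59, 9.70 and 9.99 in NB4 KD, which did not.

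The MNT region in intron 4 (2387928 to 2389300), which overlaps exon 1 of the alternative transcript MNT-205, was at 51.7 and 64.2 in K562 Control and 48.0 and 41.0 in K562 KD. NB4 Control was at 44.3, 47.6 and 70.9 and NB4 KD at 71.8, 78.0 and 83.6. K562 KD lay below K562 Control by -13.4 points and NB4 KD above NB4 Control by 23.5 points, and the lines differed by -37.0 points (two-sided exact permutation p = 0.01667, and 0.94 after Benjamini-Hochberg adjustment over all regions). When summits were chained within 200 bases in place of merging peaks, the best-listed cluster of this region gave a difference between the lines of 6.05 points (exact p = 0.8), so the direction rests on how the peaks were joined. The exon 6 region was strongest in HepG2 WT, at 71.2 and 78.8, and weakest in K562 WT, at 11 and 36.9, with the other groups between 34.7 and 67.1 and KD overlapping Control in both lines.

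MGA lies on the plus strand of chromosome 15 (41621134 to 41773081) and is the largest gene of the 8, which gives it more room for peaks. It held 155 of the 395 sense summits, in 14 sense regions. The windows of exons 3, 9 and 13 are shown to set the lead region and the one that was lower under KD beside one with GGACT at its summit, with GGAC in capitals where it occurs. They are chr15:41696699-41696799, chr15:41713291-41713391 and chr15:41736477-41736577 on the plus strand.
MGA exon 3: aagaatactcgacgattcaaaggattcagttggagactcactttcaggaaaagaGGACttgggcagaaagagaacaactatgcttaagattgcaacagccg
MGA exon 9: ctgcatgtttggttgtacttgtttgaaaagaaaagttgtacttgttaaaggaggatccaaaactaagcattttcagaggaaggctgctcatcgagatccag
MGA exon 13: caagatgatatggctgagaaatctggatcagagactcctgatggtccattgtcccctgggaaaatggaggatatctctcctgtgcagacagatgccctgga
The lead region in exon 9 (41713024 to 41713649) was between 93.3 and 99.6 in all 14 libraries, and KD minus Control was 2.15 points over both lines (exact two-sided p = 0.0667). The windows of exons 9 and 13 hold no GGAC. The exon 13 region (41736148 to 41736766) was at 9.25 and 18.4 in HepG2 WT, 54.4 and 79.6 in K562 WT, 73.7 and 78.7 in K562 Control and 72.0 and 72.0 in K562 KD. The NB4 values were 37.6, 28.4 and 47.2 in Control and 8.35, 19.7 and 11.6 in KD. The K562 groups differed by -4.22 points and the NB4 groups by -24.5 points, without overlap in either line. Over both lines the difference was -14.4 points (two-sided exact permutation p = 0.01667), again with an adjusted p of 0.955 over all regions, and p was 0.0667 with lists of equal length. The folds there were 13.5 and 10.97 in K562 Control, 9.99 and 13.2 in K562 KD, 4.14, 3.81 and 4.35 in NB4 Control and 2.43, 2.96 and 2.49 in NB4 KD, and those of K562 overlapped.

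Between the lines, 7 of the 16 MGA regions listed in the Control libraries were lower in NB4 Control than in K562 Control, beside 32% of all regions. Exon 2 was at 97.3 and 98.9 in K562 Control and 83.8, 88.5 and 87.6 in NB4 Control, and at 94.8, 95.3 and 94.7 in NB4 KD, all above NB4 Control. For exon 2, KD minus Control over both lines was 4.31 points (exact two-sided p = 0.05). The exon 3 region was at 26.1 and 50.5 in HepG2 WT and between 92.0 and 97.4 in the other 12 libraries, with overlapping KD and Control. These values come from different summits within the merged region. The HepG2 WT summits lay 1333 and 1359 bases into the transcript, and the strongest summits of the other 12 libraries 1926 to 1938 bases. No HepG2 WT summit lay in the exon 3 window shown above. The region in intron 17 was at 58.9 and 75.4 in K562 Control and 44.1 and 64.3 in K562 KD, and in NB4 it was not listed in Control 1, at 12.2 and 24.8 in Control 2 and 3 and at 34.8, 36.2 and 27.7 in KD. The merged region in exon 17 stayed between 91.5 and 98.7 and that in exon 24 between 87.7 and 99.2 in all libraries, but their strongest summits moved. In exon 17 the strongest summit lay 6874 bases into the transcript in K562 KD 2 and 7118 to 7181 bases in the others. In exon 24 it lay at 9422 to 9424 bases in HepG2 WT and K562 WT 1, and at 8485 to 8590 in the others.

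MLX, the alternative partner, lies on the plus strand of chromosome 17 (42567072 to 42573239). Its lead region in the 3' UTR of exon 8 (42571473 to 42571929) was at 21.4 and 47.6 in HepG2 WT, 49.8 and 65.1 in K562 WT, 44.4 and 37.2 in K562 Control and 56.5 and 39.2 in K562 KD. In NB4 it was not listed in Control 1, at 47.1 and 52.3 in Control 2 and 3, and at 61.2, 16.2 and 69.3 in KD, so no pair of KD and Control groups stood apart (11.4 points, exact two-sided p = 0.367). A region in intron 6 was listed only in the 4 K562 libraries with a hairpin, at 51.3 and 53.0 in Control and 50.2 and 20.8 in KD, and not in K562 WT, HepG2 or NB4. The region upstream of MLX lies within COASY, a coenzyme A synthesis gene on the same strand, and its 11 peaks may belong to that RNA.

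**Figure D4:**
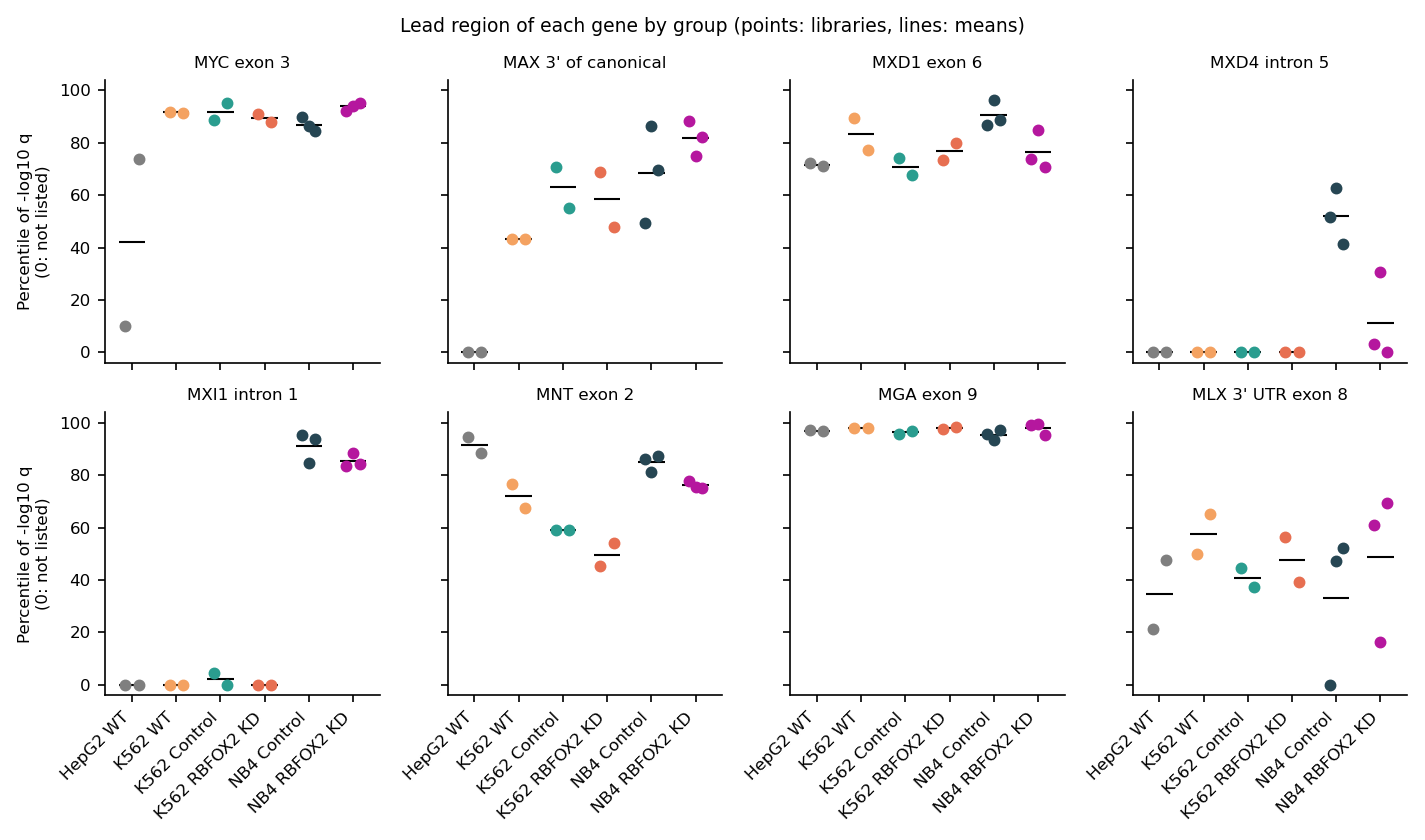
Percentile of -log10 q (0 for not listed) of the lead region of each of the 8 genes in the 6 groups. Points are libraries and lines are group means. MGA exon 9 stays above 93 in every library, MXD4 and MXI1 are listed in NB4 with a single K562 exception for MXI1, and MNT exon 2 is lower in each KD group than in its Control group.

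Across the 8 genes, the sense summits numbered 20 and 23 in HepG2 WT, 27 and 24 in K562 WT, 27 and 29 in K562 Control, 30 and 25 in K562 KD, 29, 32 and 32 in NB4 Control and 32, 34 and 31 in NB4 KD. The means were 28.0 ± 1.41 (SD, n = 2) in K562 Control and 27.5 ± 3.54 (n = 2) in K562 KD, and 31.0 ± 1.73 (n = 3) in NB4 Control and 32.3 ± 1.53 (n = 3) in NB4 KD, so that KD and Control differed by less than the SD of a group in both lines. With lists of equal length, the NB4 difference of 1.33 summits became -4.33. The 2 regions with an exact p under 0.05 over both lines, MNT exon 2 and MGA exon 13, were lower in KD. Neither passed 0.05 in that exact permutation test after Benjamini-Hochberg adjustment over all regions. Both lie in coding exons of MAX-binding repressors. However, most of the 8 genes encode such repressors, and coding exons held 55.7% of the sense summits. Other coding exons of MGA went both ways over both lines, with 4.31 points in exon 2 and -6.54 points in exon 15. In the MXD family, the lead regions of MXD1 and MXD4 were lower in all NB4 KD libraries, while the NB4 groups overlapped in the lead region of MXI1. No region at a gene start passed the test over both lines, but those of MXI1 and MXD1 were not listed in any K562 Control or KD library. With NB4 alone the exact p cannot go below 0.1, so these regions could not pass.

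**Figure D5:**
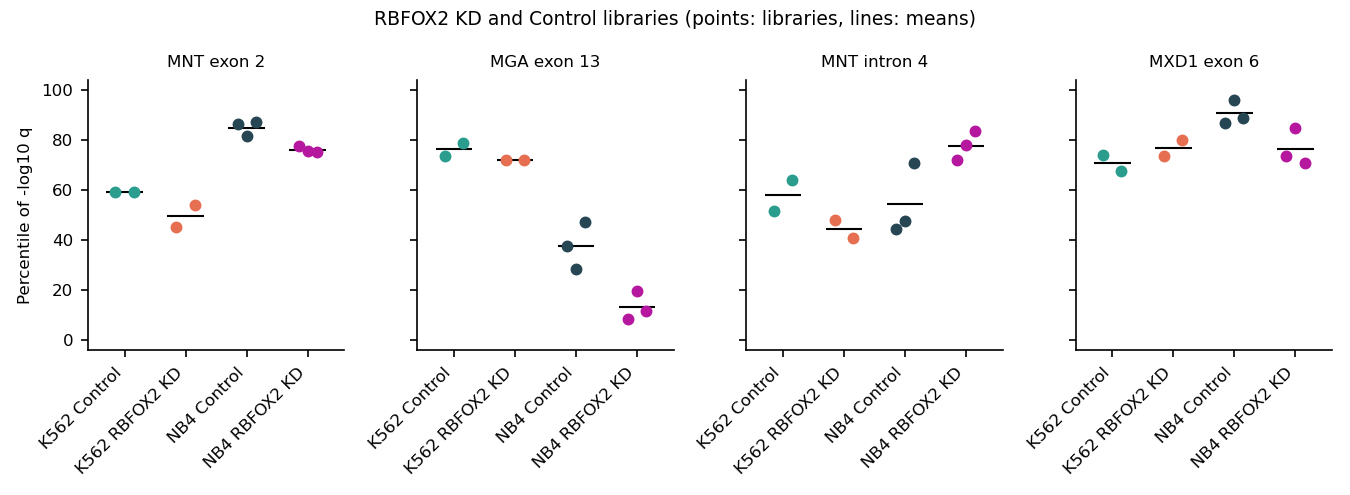
Percentile of -log10 q in the Control and RBFOX2 KD libraries of K562 and NB4 for MNT exon 2, MGA exon 13, MNT intron 4 and MXD1 exon 6. Points are libraries and lines are group means. MNT exon 2 and MGA exon 13 are lower in KD in both lines, MNT intron 4, as merged peaks, is lower in K562 KD and higher in NB4 KD, and MXD1 exon 6 is lower in NB4 KD.

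Of 5 other network genes, MYCN was listed in 0 libraries, and MYCL, the third MYC-type activator, in the 6 K562 libraries alone. MXD3 and MLXIP, which encodes MondoA, were listed in all 14, and MLXIPL, its liver paralogue, in the 6 K562 libraries and in 1 HepG2 library. In these 5 genes 0 of 19 regions were higher and 3 lower in every K562 KD library (11.3% and 12.5% of all regions), and 0 of 10 were higher and 1 lower in NB4 KD (14.3% and 3.97%), counts too small to set the genes apart from these shares. Of 16 genes for MYC cofactors and turnover, 14 were listed in all 14 libraries, and RUVBL2, which encodes a chromatin-remodelling ATPase, in 11. In these 16 genes, of 98 regions in K562, 8 were higher and 15 lower in every KD library (11.3% and 12.5% of all regions), and of 111 regions in NB4, 10 were higher and 5 lower (14.3% and 3.97%). Of 18 textbook MYC target genes, 4 were listed in all libraries, and ODC1, LDHA and CDK4, for polyamine synthesis, lactate production and the cell cycle, in none. CAD, for pyrimidine synthesis, was listed in both K562 Control libraries and nowhere else. In the targets, 2 of 36 K562 regions were higher and 4 lower (11.3% and 12.5% of all regions), and 5 of 42 NB4 regions were higher and 2 lower (14.3% and 3.97%), near or below those shares.

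The protein-coding genes whose strongest sense percentile over the 14 libraries was most like that of MYC, by the mean absolute difference, were ERP29 (2.76 points), TXLNA (2.93), DHX38 (3.09), NFATC2IP (3.11) and ABCD4 (3.35). By the mean of this percentile, 90.3% of protein-coding genes were below MYC and 99.0% below MGA, against 77.1% below MAX, 84.5% below MXD1, 82.2% below MNT, 69.8% below MLX, 64.6% below MXI1 and 50.8% below MXD4. These ranks are not per length, and a long gene such as MGA has more regions to take the strongest from.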

How the data were processed

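Peak lists of 14 IP libraries were used; the 14 input libraries came without a table and were not used. Per the study's methods, the authors trimmed reads with Trimmomatic 0.39, aligned them to hg38 with HISAT 2.1.0 and GENCODE release 29, separated strands with SAMtools 1.9 and called peaks per library and strand with MACS2 (reads extended to 150 bases, genome size 1.3e+08, up to 5 duplicates kept, q under 0.01). Replicates were not pooled. Whether the input served as background is not given in the sources used here. The deposited values are the authors' MACS output, namely the fold (a ratio to the local background at the summit), the p-value and q-value as -log10, the score and the summit position. They are not counts, so no count model was fitted.

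The 496678 peaks of the autosomes and sex chromosomes were joined into regions and placed with GENCODE release 44. The pileup and local mean at each summit were solved from the fold and the -log10 p-value. Pileups came out whole (within 0.05) in 11 libraries. HepG2 WT 1, HepG2 WT 2 and NB4 Control 3 appeared rescaled, and their depth is less sure. Depth limits weak peaks most, and no interval can be given without counts. Exact permutation tests were two-sided over libraries, with labels permuted within a line for both lines together, and were checked on simulated data. Same-numbered Control and KD libraries did not deviate together (correlations -0.203 to -0.0751), so no pairing was used. All 8 genes are named. Other lists are given as counts with at most 4 examples, those listed in fewest libraries or with regions that do not overlap between KD and Control. MGA exon 13, MNT intron 4 and the other regions described beside the lead regions were chosen after their values were seen, and the members and lists were chosen with earlier results of these data known. Alternatives were a -log10 q of at least 5, lists of equal length, the percentile of the fold, scaling to the shallowest depth, chained summits, a window without the upstream bases, leaving out each library, and the replicate number as a block. Python 3.11.15, numpy 2.4.6, pandas 2.3.3, scipy 1.17.1 and matplotlib 3.10.9 were used.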

Additional observations from a re-analysis of the deposited data

Results flagged for a closer look

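A pair of regions differed between K562 and NB4 in the KD minus Control difference by an exact permutation test of that difference (two-sided, labels permuted within each line). For MNT intron 4 the difference in K562 minus that in NB4 was -37.0 percentile points (exact p = 0.01667), with both K562 KD libraries below both K562 Control libraries and all 3 NB4 KD libraries above all 3 NB4 Control libraries, but this turned to 6.05 points (exact p = 0.8) with chained summits. For MXD1 exon 6 it was 19.9 points (exact p = 0.0333), with NB4 KD below NB4 Control in 3 of 3 libraries and the K562 groups overlapping. Of all 71997 regions, 1348 (1.87%) had such an exact p under 0.05, and 0 passed Benjamini-Hochberg adjustment over all of them.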

How the results depend on the processing

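Of 89 alternative values for counts and summit differences, 76 stayed within 1.5 times the main count or 1 SD of the main difference and 13 moved. Of 179 for single regions, 154 kept direction and call, 20 lost the call, 1 gained it and 4 turned direction. Leaving out a library makes groups smaller, so non-overlap is easier by construction: the K562 KD count of 7 regions became 15 to 25 (25 without K562 Control 1), the NB4 KD count of 9 became 10 to 17 (17 without NB4 Control 2, 16 without NB4 KD 2), and the NB4 Control against K562 Control count of 16 became 19 to 25, with 25 without K562 Control 1. With lists of equal length, the NB4 KD count was 4 (1 higher, 3 lower), the NB4 KD minus Control summits were -4.33, and K562 WT minus HepG2 WT summits were -2.5 in place of 4. The lead regions with an exact p under 0.05 numbered 1 (MNT), 0 with chained summits, 0 with the replicate block and 1 to 2 with a library left out (2 without NB4 KD 3, where MGA exon 9 reached an exact p of 0.0333). With the replicate number as a block, MNT exon 2 and MGA exon 13 had an exact p of 0.0625, the smallest that 5 pairs can give. With a library left out, their exact p stayed at 0.01667 or 0.0333. The MAX lead region turned to -0.0925 with the percentile of the fold, and ranged from -0.864 (without K562 KD 1) through -0.389 (without NB4 Control 1) to 9.66 with a library left out, from 4.40. The differences between K562 and NB4, whose alternatives were chosen after seeing the data as were those of MGA exon 13, lost p under 0.05 with the percentile of the fold (exact p 0.0833 for MNT intron 4 and 0.217 for MXD1 exon 6), with the block (0.0625 and 0.125) and with some libraries left out (-30.7 to -45.3 points with exact p at most 0.05, and 16.6 to 24.1 points with exact p at most 0.0833), and MNT intron 4 turned to 6.05 with chained summits. The cause of these moves was otherwise not tested. Scaling to the shallowest depth changed no call on a lead region. However, it scales all peaks of a list by 1 factor before they are ranked within that list. The percentiles therefore hardly move (the MNT lead region went from -9.16 to -9.14 points), and this alternative cannot show what depth does.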
